A study of Homo sapiens with 4 samples.

Results

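The genes of YAP and TEAD signalling were examined for FOXC1 binding in J82 cells, an established line from a human bladder cancer, cultured with DMEM and 10% FBS. The set held 10 genes: the coactivators YAP1 and WWTR1, the DNA-binding partners TEAD1, TEAD2, TEAD3 and TEAD4, and the targets CCN1 (also CYR61), CCN2 (also CTGF), ANKRD1 and AMOTL2. They are 10 of 20136 protein-coding genes, and were chosen by name, with earlier results of these data known. FOXC1, a transcription factor of the forkhead family, was mapped by chromatin immunoprecipitation with sequencing (ChIP-seq) with the antibody D8A6, in 2 biological replicates, with input libraries made without antibody as the control. A peak was assigned to a gene when its summit lay in the gene body or within 50 kb of it, a window set by distance alone. Of 22405 peaks in replicate 1 and 41789 in replicate 2, 45 and 84 lay in these windows. Peaks of the replicates that overlapped were merged, and 34 of 13238 shared regions lay in the windows. All coordinates are on hg19. Expression of the genes, H3K27ac and ChIP in cells without FOXC1 were not analysed here, and the cell line label could not be checked against expressed markers.

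YAP and its paralogue TAZ, the product of WWTR1, are the coactivators at the end of the Hippo pathway. When the kinases of this pathway are inactive, YAP and TAZ enter the nucleus and bind TEAD proteins, which contact DNA at the short core CATTCC. Their targets include genes of cell adhesion, matrix signalling and growth, and YAP and TAZ are often active in carcinoma cells. Forkhead factors contact a different core, of which GTAAACA is the best known form.

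The sequences under the regions that the results turn on are given first, since forkhead and TEAD cores lay at the same summit in some of them and at separate summits in others. Each run is centred on the summit, with 50 bases on either side, and is read 5′ to 3′ on the + strand of hg19. The forkhead cores searched were GTAAACA and its variants, of which one is ATAAACA, another is GTAAATA and the last is ATAAATA. The TEAD core was CATTCC. Capitals mark a forkhead or TEAD core on either strand, so that a forkhead core can appear in its reverse form, as TGTTTAC, and a TEAD core as GGAATG. The first 4 are the best ranked regions of the 4 target genes. The last 2 lie within 2 kb of a start site of the gene, and were chosen after their values were seen.
ANKRD1, chr10:92681245-92681345: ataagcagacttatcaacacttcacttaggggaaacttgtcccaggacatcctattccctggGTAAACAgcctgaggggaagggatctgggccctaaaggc
CCN1, chr1:86049996-86050096: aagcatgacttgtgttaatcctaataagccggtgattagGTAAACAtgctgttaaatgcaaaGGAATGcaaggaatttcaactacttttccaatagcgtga
CCN2, chr6:132259378-132259478: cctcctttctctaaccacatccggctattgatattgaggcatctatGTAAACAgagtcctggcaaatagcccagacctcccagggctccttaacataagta
AMOTL2, chr3:134046729-134046829: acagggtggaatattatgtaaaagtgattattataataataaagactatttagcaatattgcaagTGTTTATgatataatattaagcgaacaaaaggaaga
CCN2, chr6:132272592-132272692: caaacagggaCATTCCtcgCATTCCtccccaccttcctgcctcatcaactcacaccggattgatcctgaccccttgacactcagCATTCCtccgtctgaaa
AMOTL2, chr3:134083638-134083738: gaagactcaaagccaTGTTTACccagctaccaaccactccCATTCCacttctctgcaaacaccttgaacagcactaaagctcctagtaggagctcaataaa

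FOXC1 binding was uneven across the pathway. WWTR1, TEAD1 and CCN1 had 7 shared regions each, ANKRD1 had 5, CCN2 had 4, and TEAD3 and AMOTL2 had 2 each. YAP1, TEAD2 and TEAD4 had none. Thus 7 of the 10 genes had a shared region, whereas 46.6% of all protein-coding genes did. A replicate 1 peak was found near 9 of the 10, against 62.8% of protein-coding genes, and a replicate 2 peak near 9, against 80.2%. The irreproducible discovery rate (IDR), which ranks paired peaks by how well the replicates order them, was 0.05 or less in 19 of the 34 regions (55.9%), compared with 45.2% of all shared regions. At least 1 of these was found at 7 of the 10 genes, compared with 26.9% of protein-coding genes. Among genes with a shared region, it was 7 of 7 here and 5410 of 9388 over protein-coding genes. No test was made of these counts, because the design holds 1 condition and the genes were chosen by name.

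**Figure D1:**
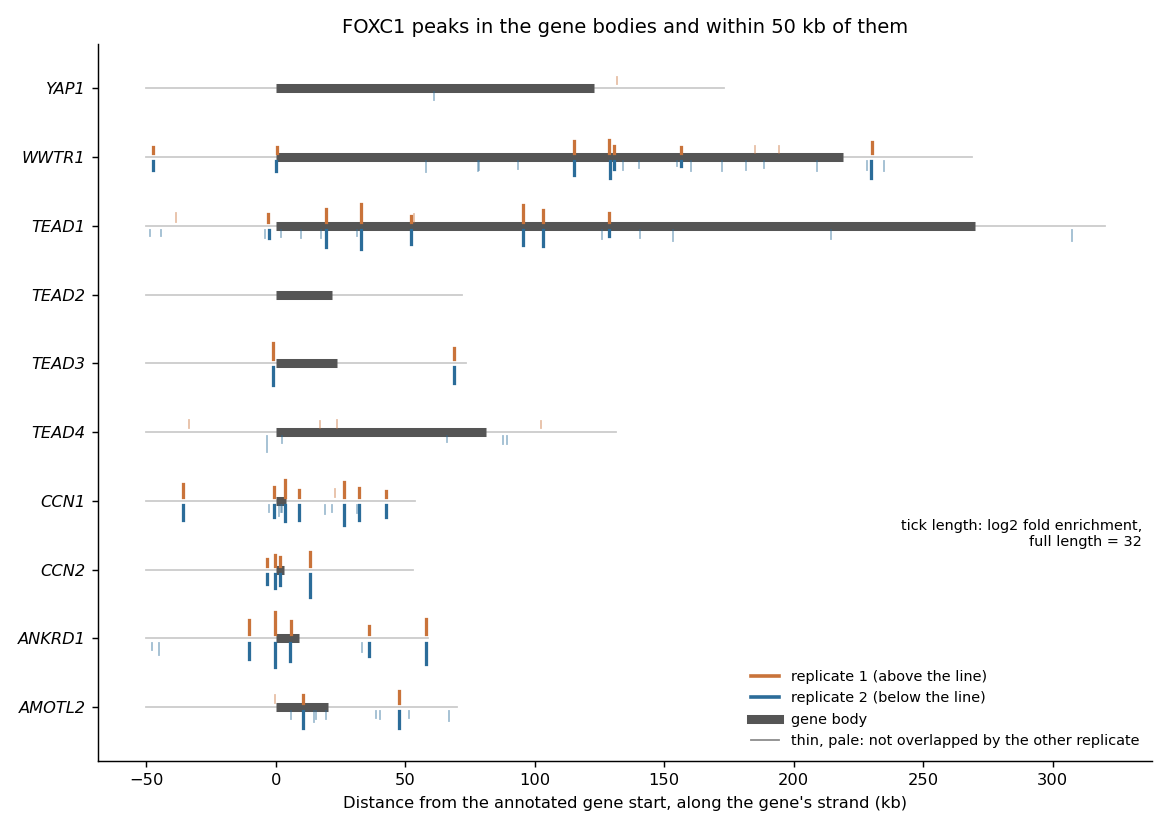
FOXC1 peaks by distance from the annotated gene start (x axis, kb, along the gene's strand), with replicate 1 above and replicate 2 below each gene, the gene body as a dark bar and tick length as log2 fold enrichment. WWTR1 and TEAD1 carried 9 peaks each in replicate 1 and 21 and 19 in replicate 2, CCN1 carried 8 and 14 around a short gene, and TEAD2 carried none.

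Long genes have larger windows, so counts were also expressed per 100 kb of window. The value was 6.74 for CCN1, 4.59 for ANKRD1 and 3.88 for CCN2, whose gene bodies are under 10 kb. It was 2.19 for WWTR1, 1.89 for TEAD1, 1.66 for AMOTL2 and 1.62 for TEAD3. The 3 short target genes therefore had the densest binding of the set, with a density above that of at least 99.6% of protein-coding genes. By number, 0.849% of protein-coding genes had 7 or more shared regions, 2.6% had 5 or more and 4.74% had 4 or more. The 10 windows, with 1.78 Mb in all, held 19.1 shared regions per Mb, compared with 4.28 over chromosomes 1 to 22, X and Y. The latter covers all sequence and not only windows of genes, so the 2 values are not like for like. Over gene windows, the median per 100 kb was 1.78 for the 10 genes and 0 for all protein-coding genes.

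**Figure D2:**
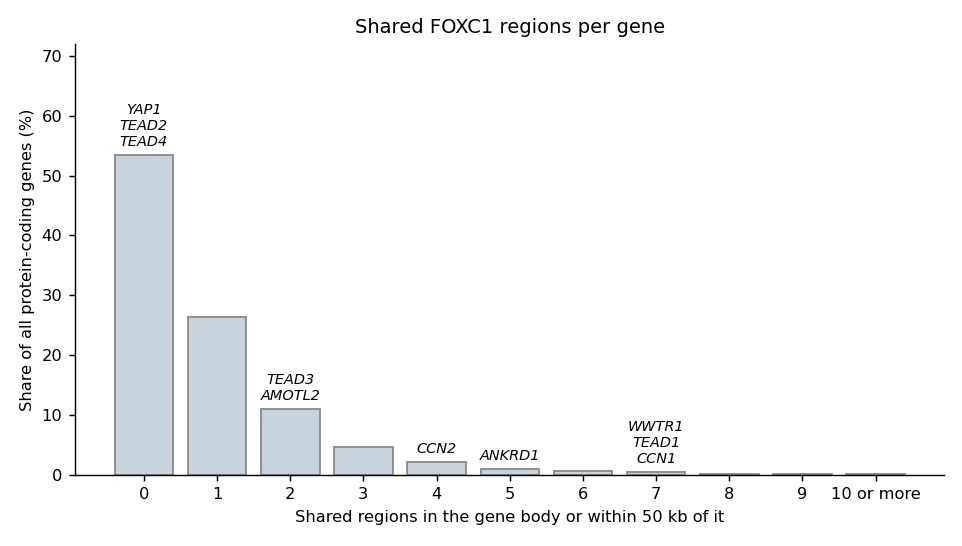
Share of all protein-coding genes (y axis, %) by their number of shared regions in the gene body or within 50 kb (x axis), with the 10 genes written above the bar they fall in. YAP1, TEAD2 and TEAD4 fall in the bar of genes with none, which holds 53.4% of genes, and WWTR1, TEAD1 and CCN1 in that of genes with 7, which holds 0.387%.

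The replicates differed in strength at these regions as they did elsewhere. Fold enrichment is the ratio of ChIP reads at the summit to the local background. Its median over the 34 regions was 4.65 (replicate 1) and 8.53 (replicate 2), compared with 3.79 and 6.71 over all shared regions. It was higher in replicate 2 in 30 of the 34 (88.2%), compared with 91.9% of all shared regions. Replicate 2 exceeded replicate 1 by a median factor of 1.66 in these regions and 1.69 in all. Reads over the summit, recovered from the peak values, had medians of 33 and 53. In 19 of the 34 regions the 95% Poisson intervals of these reads did not overlap (55.9%), compared with 40.6% of the 13027 shared regions with reads recovered in both replicates. Replicate 2 was the higher in each. These intervals cover counting error only. The peak values corresponded to about 43.2 M ChIP reads for replicate 1 and 41.5 M for replicate 2.

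**Figure D3:**
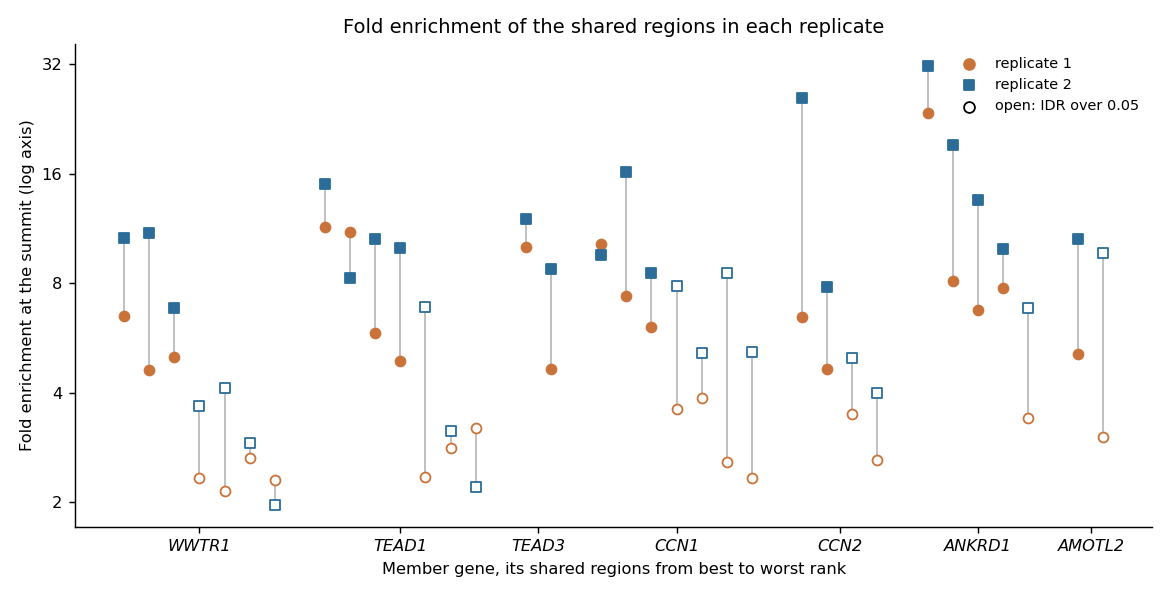
Fold enrichment at the summit (y axis, log scale) of each shared region in replicate 1 (circles) and replicate 2 (squares), grouped by gene and ordered by rank. Filled symbols have an IDR of 0.05 or less. The strongest pair, 23.5 and 31.7, is at ANKRD1, and 30 of the 34 regions are higher in replicate 2.

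Of the coactivators, WWTR1 was bound at many places and YAP1 at none that both replicates shared. YAP1 (chr11:101981178-102104155) had 1 peak in each replicate, at different positions. The replicate 1 peak lay beyond the gene end with a fold enrichment of 2.90 and 14 reads, and the replicate 2 peak lay in an intron with 2.87 and 14 reads. Both fell below the medians of their lists, 3.02 and 3.63.

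The best ranked region of WWTR1 (chr3:149235022-149454501, minus strand) lay in an intron, 129 kb downstream of the annotated gene start, at chr3:149325343-149325888. In replicate 1 it had a fold enrichment of 6.49 and 58 reads (interval 44 to 75), in replicate 2 of 10.7 and 105 reads (85.9 to 127), a mean of 8.58 ± 2.95 (SD, n = 2). Its IDR was 2.81e-05. None of the searched cores lay within 50 bp of this summit. A similar region, chr3:149224185-149224769, lay beyond the end of WWTR1, between genes, with fold enrichments of 4.62 and 11. It held a TEAD core 4 bp from the summit. Another reproducible region, chr3:149338977-149339447 in an intron, had 5.03 and 6.86 and held a forkhead core. The start of WWTR1 was marked by a weaker region. A region 324 bp inside the gene, chr3:149453948-149454418, had fold enrichments of 2.15 and 4.14 and an IDR of 0.377. The remaining 3 WWTR1 regions had fold enrichments of 1.97 to 3.68 in either replicate, and 1 of them lay 683 bp from a start site of the neighbouring gene ANKUB1. Another 14 peaks of replicate 2 and 2 of replicate 1 in this window had no partner in the other replicate.

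The TEAD genes encode closely related DNA-binding factors, and their loci differed widely. TEAD1 (chr11:12695968-12966284) had 4 reproducible regions, all in introns. The best ranked, chr11:12728506-12729166, lay 32.9 kb inside the gene with a fold enrichment of 11.4 in replicate 1 (90 reads, interval 72.4 to 111) and 15.0 in replicate 2 (165 reads, 141 to 192). Its mean was 13.2 ± 2.56 (SD, n = 2) and its IDR 2.41e-07. By −log10 p it was peak 762 of replicate 1 and peak 998 of replicate 2, and it held none of the searched cores near its summit. The region at chr11:12791227-12791995, 95.6 kb inside the gene, was 1 of 4 regions with a higher fold enrichment in replicate 1 (11.1 and 8.26). Its reads were higher in replicate 2, with 87 (interval 69.7 to 107) in replicate 1 and 136 (114 to 161) in replicate 2. The regions at chr11:12714907-12715840 and chr11:12798919-12799458 had 5.83 and 10.6, and 4.91 and 10.0. All 3 of these held ATAAACA, at 4, 34 and 17 bp from the summit. No shared region lay within 2 kb of a TEAD1 start site. The nearest, chr11:12692999-12693383, was 2797 bp upstream with fold enrichments of 2.83 and 3.15 and an IDR of 0.314.

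TEAD3 (chr6:35441374-35464856, minus strand) had 2 reproducible regions and no other peak. The first, chr6:35465518-35466118, lay 931 bp upstream of a TEAD3 start site, in sequence that the annotation also counts as untranslated exon of TULP1. Fold enrichment was 10.1 with 51 reads (interval 38 to 67.1) in replicate 1 and 12 with 62 reads (47.5 to 79.5) in replicate 2. The mean was 11 ± 1.37 (SD, n = 2), the IDR was 0.000231, and the intervals of the reads overlapped. No searched core lay within 50 bp. The second, chr6:35395639-35396237, lay 68.9 kb downstream of the TEAD3 start, with 4.65 and 8.77. Its summit, midway between those of the replicates, lay between genes, with the AP-1 core TGACTCA 2 bp away. The replicate 2 summit itself lay in untranslated sequence of PPARD. The nearest coding start site to this region was that of FANCE.

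TEAD4 and TEAD2 had no shared region. TEAD4 (chr12:3068496-3149842) had 4 peaks in replicate 1, of which the strongest had a fold enrichment of 3.10, and 5 in replicate 2. None of them overlapped. The strongest, in replicate 2 alone, lay 3.24 kb upstream of the TEAD4 start at chr12:3065032-3065453. Its fold enrichment was 9.15 with 47 reads (interval 34.5 to 62.5) and a −log10 q of 26.3. TEAD2 (chr19:49843852-49865714) had no peak in either list.

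The single region with the highest fold enrichment of the set lay at ANKRD1, although the target genes were not stronger throughout. The median fold enrichment over the 18 regions of targets was 4.89 in replicate 1 and 9.05 in replicate 2, and over the 9 of TEAD genes it was 4.91 and 8.77. ANKRD1 (chr10:92671853-92680844, minus strand) encodes an ankyrin-repeat protein that is induced by stretch and by YAP. Its best ranked region, chr10:92680825-92681669, had its summit 451 bp upstream of the start site, between genes. Fold enrichment was 23.5 in replicate 1 with 149 reads (interval 126 to 175) and 31.7 in replicate 2 with 209 reads (182 to 239). The mean was 27.6 ± 5.79 (SD, n = 2), and the IDR of 9.53e-10 was the lowest of the 34 regions. The summits of the replicates lay 1 bp apart, and GTAAACA lay 15 bp from their midpoint, as printed above. A second region in an ANKRD1 intron, chr10:92674895-92675512, had 6.78 and 13.6 and held ATAAACA. The region at chr10:92690900-92691619, 10.3 kb upstream, had 7.75 and 9.96 and held no searched core. The region at chr10:92622475-92623094 lay 58.1 kb downstream of the ANKRD1 start and 4987 bp from a start site of HTR7, with 8.14 and 19.2. None of the 5 ANKRD1 regions held a TEAD core.

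CCN1 encodes a secreted matricellular protein that binds integrins. Its gene is 3.83 kb long (chr1:86046444-86050272), and 7 shared regions lay within 50 kb. The best ranked, chr1:86049639-86050320, lay at the end of the gene, 3602 bp from the annotated gene start, in an exon of a noncoding CCN1 transcript. In replicate 1 its fold enrichment was 10.3, with 67 reads (interval 51.9 to 85.1) and in replicate 2 it was 9.56, with 147 reads (124 to 173). The mean was 9.93 ± 0.515 (SD, n = 2) and the IDR 3.66e-06. Fold enrichment was close in the replicates, whereas the intervals of the reads did not overlap. The region held GTAAACA at 8 bp and a TEAD core at 14 bp from the summit, on opposite sides. The other reproducible regions were chr1:86072442-86073299, 26.4 kb downstream of the gene start, with 7.4 and 16.2, and chr1:86010240-86011148, 35.8 kb upstream in an intron of DDAH1, with 6.09 and 8.54. Neither held a searched core. The region at the CCN1 start, chr1:86045449-86045993, was weaker. It lay 779 bp upstream with 3.87 in replicate 1 and 5.15 in replicate 2, and its IDR was 0.230.

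CCN2 encodes another protein of the same secreted family. All 4 of its peaks in replicate 1 (chr6:132269316-132272512, minus strand) were overlapped by its 4 peaks in replicate 2. The best ranked, chr6:132259077-132259776, lay 13.1 kb downstream of the CCN2 start, in an intron of the noncoding gene LINC01013. Fold enrichment was 6.47 in replicate 1 with 52 reads (interval 38.8 to 68.2) and 25.9 in replicate 2 with 135 reads (113 to 160). The mean was 16.2 ± 13.7 (SD, n = 2), so the replicates agreed on the position, with summits 11 bp apart, and differed in strength. GTAAACA lay 1 bp from this summit. The promoter region, chr6:132272377-132273043, had its summit 130 bp upstream of the start site, where LINC01013 is also annotated, with 4.65 and 7.82, a mean of 6.23 ± 2.24 (SD, n = 2) and an IDR of 0.0189. It held no forkhead core and 3 copies of CATTCC, at 38, 28 and 36 bp from the summit. Of all 13238 shared regions, 8 held 3 or more copies in such a window (0.0604%). The cutoff of 3 matches the copies seen here, and CCN2 was chosen as a YAP and TEAD target. The share is therefore a description and no measure of chance. Another region, chr6:132270739-132271256, lay 1514 bp inside the gene with 3.49 and 4.99, an IDR of 0.129 and 1 TEAD core. The last, 3488 bp upstream, was weak, with 2.61 and 4.01, 15 and 20 reads and an IDR of 0.218. This region held a TEAD core and an AP-1 core side by side.

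AMOTL2 (chr3:134074189-134094321, minus strand) encodes an angiomotin-family scaffold that binds YAP and restrains it. Its best ranked region, chr3:134046365-134047348, lay 47.5 kb downstream of the gene start in an exon of the noncoding gene LINC02004. Fold enrichment was 5.13 with 41 reads in replicate 1 and 10.6 with 81 reads in replicate 2, a mean of 7.87 ± 3.87 (SD, n = 2), and the IDR was 0.000311. The second region, chr3:134083392-134083983, lay in an intron 1995 bp from an internal AMOTL2 start site. It had 3.02 in replicate 1 and 9.72 in replicate 2, an IDR of 0.311, and both a forkhead and a TEAD core.

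**Figure D4:**
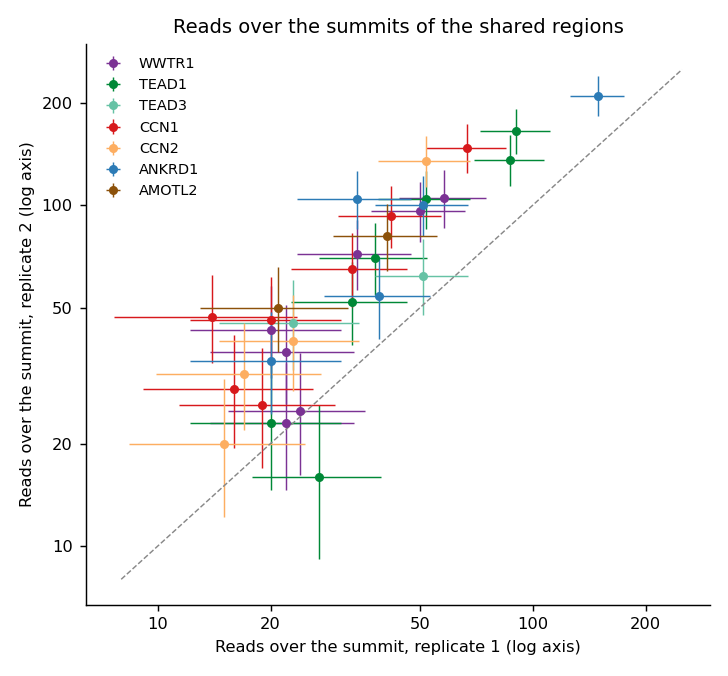
Reads over the summit in replicate 1 (x axis, log scale) and replicate 2 (y axis, log scale) for the 34 shared regions, coloured by gene, with 95% Poisson intervals and a dashed line of equal reads. ANKRD1 holds the highest point, with 149 and 209 reads, and 19 regions (55.9%, against 40.6% of all shared regions) have intervals that do not overlap.

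Shared regions lay within 2 kb of a start site of the gene itself at 6 of the 10 genes, namely WWTR1, TEAD3, CCN1, CCN2, ANKRD1 and AMOTL2, compared with 8.65% of protein-coding genes. AMOTL2 was counted by a summit 1995 bp from an internal start site, and its replicate 2 summit lay 2030 bp away. At 3 of the 10 genes, TEAD3, CCN2 and ANKRD1, such a region had an IDR of 0.05 or less, compared with 3.77% of protein-coding genes. For genes with a shared region that close, it was 3 of 6 here and 760 of 1742 among protein-coding genes. Most of the binding near the 10 genes was away from start sites. Of the 34 summits, 20 lay in introns, 11 between genes and 3 in exons, and 8 (23.5%) lay within 2 kb of any start site, compared with 20% of all shared regions. The last regions inside the limit of 50 kb were those 49.1 kb from ANKRD1, with 8.14 and 19.2, 47.2 kb from WWTR1, with 2.33 and 3.68, and 45.4 kb from TEAD3, with 4.65 and 8.77. The first outside were 52.9 kb from CCN2, with 2.90 and 2.87, 54.3 kb from WWTR1, with 3.33 and 4.74, and 58.4 kb from CCN1, with 4.15, 6.34 and an IDR of 0.00156.

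The searched cores were then counted over all 34 regions. A forkhead core lay within 50 bp of the summit in 17 (50%, Wilson interval 34.1 to 65.9%), compared with 48.7% of all shared regions, and in 2 of the windows placed 500 bp away (5.88%, against 10.8% for all). GTAAACA itself was found in 5 regions (14.7%), compared with 20.8% of all. The TEAD core CATTCC was found in 9 (26.5%, interval 14.6 to 43.1%), compared with 10.1% of all shared regions and 5.67% of their control windows. This share changed with the settings. At a fold enrichment of at least 5 in both replicates it was 6.67% (1 of 15 regions), below the 11.4% of all such regions. Within 25 bp of the summit it was 11.8%, compared with 5.01% of all. Among the peaks of replicate 1 alone it was 20%, compared with 8.45% of all, and among those of replicate 2 alone 13.1%, compared with 8.77%. By role, 6 of the 18 regions of targets and 3 of the 7 of coactivators held it, and none of the 9 of TEAD genes. The TEAD core was in 3 of the 19 regions with an IDR of 0.05 or less (15.8%, interval 5.52 to 37.6%), compared with 11.2% of all such regions. It was in 6 of the other 15 (40%, interval 19.8 to 64.3%), compared with 9.18%. The intervals of these 2 groups overlapped. The AP-1 core TGACTCA was found in 2 (5.88%, interval 1.63 to 19.1%), compared with 16.6% of all. No core was found in 10 regions (29.4%), compared with 37.5% of all. These are matches of letters and not sites of binding, regions of 1 gene share a locus, and no test was made.

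**Figure D5:**
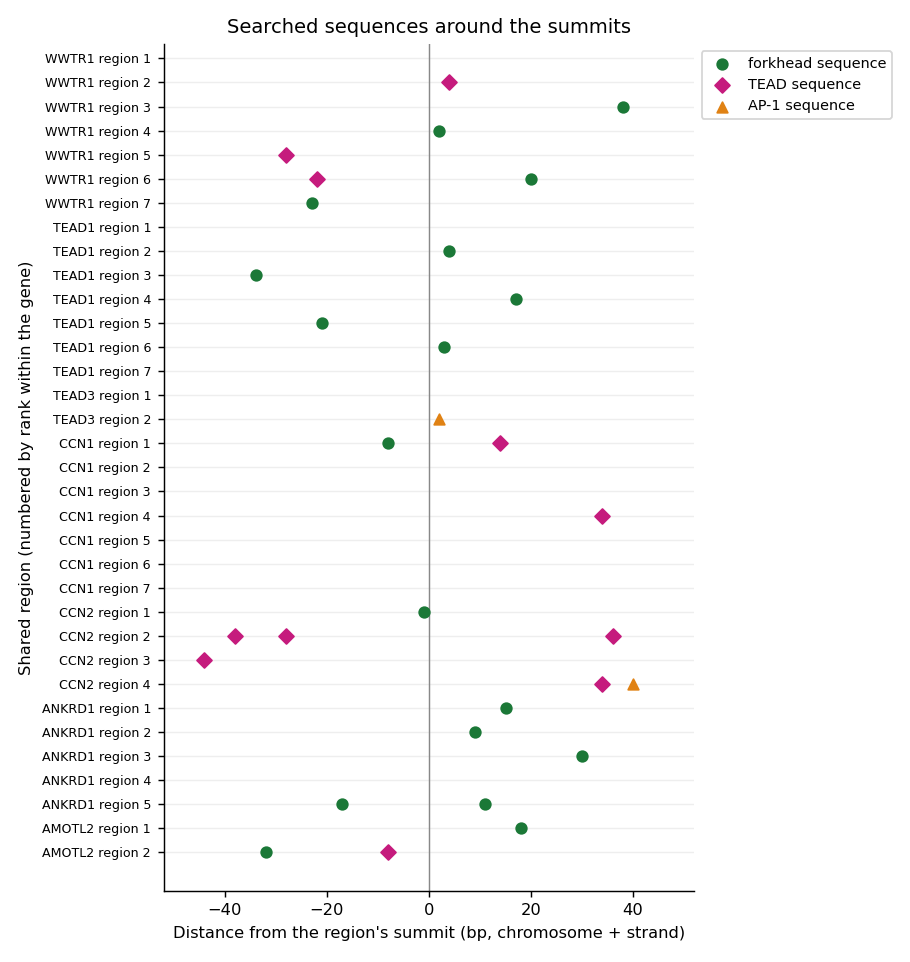
Distance of each forkhead, TEAD and AP-1 core from the summit (x axis, bp) in the 34 shared regions (y axis, numbered by rank within the gene). A forkhead core is present in 17 regions, TEAD cores in 9, with 3 in the second CCN2 region, and 10 regions are empty.

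With earlier results of these data known here too, the rest of the pathway was examined through 49 further genes. Of these, 39 (79.6%) had a shared region in the same window, beside 46.6% of protein-coding genes. In 27 (55.1%) such a region had an IDR of 0.05 or less, beside 26.9% of protein-coding genes. These shares were not corrected for window size. The median window of protein-coding genes was 127 kb, and long genes among the 49, such as RBMS3 (chr3:28616282-30051882), had larger ones. Among upstream kinases and adaptors, 14 of 19 had a shared region. NF2, the adaptor merlin, had an intronic region with fold enrichments of 11.9 and 32.4, the kinase gene STK3 one with 15.3 and 26.7, and WWC3 one 11.1 kb from its start with 10.8 and 21.9. MOB1A, WWC1, WWC2, TAOK2 and LATS2, a kinase that inactivates YAP, had none. Among angiomotins, VGLL genes and other cofactors, 10 of 12 had one. The strongest were near VGLL4, a TEAD cofactor that competes with YAP, with 22.1 and 51 in an intron of the neighbouring gene ATG7, in an intron of AMOTL1 with 20.3 and 39.8, and in an intron of LIMD1 with 8.37 and 25.8. Among other YAP targets, 15 of 18 had one. CRIM1 had an intronic region with 24.9 and 40.9, DDAH1 had 20 shared regions of which the best had 19.2 and 49.4 and lay nearest to BCL10, and ASAP1 had an intronic region with 10 and 16.7. DDAH1 is the neighbour of CCN1, and the 7 CCN1 regions also fall in its window. In 13 of the 49 genes a shared region lay within 2 kb of an own start site, compared with 8.65% of protein-coding genes. In 3 of the 49, TAOK3, AJUBA and RBMS3, such a region had an IDR of 0.05 or less, compared with 3.77% of protein-coding genes. For genes with a shared region that close, it was 3 of 13 here and 760 of 1742 among protein-coding genes.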

How the data were processed

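FOXC1 ChIP-seq in J82 cells was analysed from 1 peak list per replicate, and input lists were not used here. According to the study's methods and the submitters' processing notes, single-end 75 bp reads were mapped to hg19 with bwa and peaks called against input with MACS2 2.2.7.1. The deposited score is the −log10 p times 10. The deposited fold enrichment is a ratio of pileup to local background, both plus 1. Values of −log10 p and −log10 q were deposited too by the authors, and the filter behind the lists is not given in the sources used here. The lists ended at a −log10 p of 2.00 and 2.02.

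Peaks on chromosomes 1 to 22, X and Y were kept. Shared regions overlapped by at least 1 bp, with the summit midway between the best peaks. An IDR model was written for this work and fitted to all 13238 shared regions, so its values need not match those of the IDR tool used in the study, and 5984 regions had an IDR of 0.05 or less. Whole reads over summits were solved from fold enrichment and −log10 p within 0.001, for 99.8% and 99.5% of peaks. Read totals assume a genome size of 2.7 Gb and fragments of 260 and 270 bp. Genes came from GENCODE version 44 mapped to GRCh37, and sequence from that assembly. Code used Python 3.11.15, scipy 1.17.1 and pysam 0.24.0, and was tested on simulated data.

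The genes, lists and sequences were chosen with earlier results of these data known. Named regions were the best ranked of each gene, those at an IDR of 0.05 or less and those within 2 kb of an own start site. A gene without a shared region had its strongest unpaired peak given. From each further list the 3 genes with the best ranked region were named, and others were named after their values were seen. Regions were ranked by the worse of both ranks by −log10 p. Groups came from the sample titles, and no test was possible with 1 condition.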

Additional observations from a re-analysis of the deposited data

How the results depend on the processing

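No paired analysis was possible because the input libraries share the replicate numbers but have no peak values here. Of 112 recomputed values, 88 stayed within 1.5 times the count, within the Wilson interval of a share or within the SD of the replicates' medians. The other 24 moved. Counts and shares have no direction that could reverse. Set beside all shared regions, the TEAD share did change order. It was 26.5% against 10.1%, and 6.67% against 11.4% at a fold enrichment of at least 5. The cause of the changes was not tested, except that stricter settings keep fewer peaks by construction. In gene bodies alone, the windows held 20 and 45 peaks, 15 shared and 8 reproducible regions, with forkhead cores in 66.7% and AP-1 cores in 0% of them. Windows of 10 kb held 12 reproducible regions. At a −log10 q of at least 5, 19 and 44 peaks and 19 shared regions were left. At a fold enrichment of at least 5, 15 and 28 peaks, 15 shared and 9 reproducible regions were left, the median fold enrichment of replicate 1 was 7.4, TEAD and AP-1 cores were found in 6.67% and 0%, and 22 other pathway genes had a region. Either replicate alone gave 45 to 84 peaks and TEAD cores in 13.1 to 20%, the lower value without replicate 1. Start sites lay within 5 kb of 44.1% of regions. TEAD cores lay within 25 bp of 11.8% of summits, forkhead cores within 100 bp of 67.6%, and GTAAACA alone within 50 bp of 14.7%. The number of genes with a shared region was 6 to 8 over the alternatives that kept both replicates, and 9 had a peak in either replicate alone. With 2 replicates of 1 condition and about 43.2 M and 41.5 M reads, weak peaks of 1 list cannot be told from peaks missed in the other.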

Other observations

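Peaks without a partner in the other replicate were weak in replicate 1 and less so in replicate 2. In the windows of the 10 genes, 34 of 45 replicate 1 peaks (75.6%) and 34 of 84 replicate 2 peaks (40.5%) were overlapped, compared with 59.6% and 31.7% of all peaks. The 11 unpaired replicate 1 peaks had fold enrichments of 2.52 to 3.27, and none reached a −log10 q of 5. Of the 50 unpaired replicate 2 peaks, with 2.06 to 9.15, 15 reached it. Apart from that upstream of TEAD4, singled out above, the 2 with the highest fold enrichment were a peak 45.2 kb upstream of ANKRD1 with 5.35 and 32 reads, and a peak 133 bp from an internal TEAD1 start site with 4.89 and 31 reads, which held a forkhead core. A replicate 2 peak with 4.54 and 24 reads lay 411 bp from a CCN1 start site, where replicate 1 listed none. The choice of these peaks followed a look at their values.

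A forkhead and a TEAD core lay within 50 bp of the same summit in 3 of the 34 regions (8.82%), those of WWTR1 at chr3:149323676-149324018, of CCN1 at chr1:86049639-86050320 and of AMOTL2 at chr3:134083392-134083983. Over all shared regions the share was 4.66%. Among regions with an IDR of 0.05 or less, 1 of 19 held both cores (5.26%), compared with 5.51% of all such regions. These counts were made after the separate counts had been seen, and no test was made.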
